A study of Chlamydomonas reinhardtii with 18 samples.

Results

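Ribosome biogenesis is the making of ribosomes, which begins in the nucleolus. There a long precursor of ribosomal RNA (rRNA) is transcribed by RNA polymerase I, chemically modified by small nucleolar ribonucleoprotein particles (snoRNPs), cut, folded and joined with ribosomal proteins. Box C/D snoRNPs add methyl groups to the rRNA, box H/ACA snoRNPs turn uridines into pseudouridines, and other assembly factors bind the small and large subunits in turn before these leave the nucleus. In growing cells this is one of the costliest activities, and in yeast its genes are known to be expressed together and to be lowered when growth slows.

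The 13 genes described here are those of Chlamydomonas reinhardtii, a unicellular green alga, whose annotation names the nucleolus, rRNA processing or ribosome biogenesis, or whose gene name has one of 9 stems used for such factors in yeast. This rule matched 14 of 17741 genes, 13 by text and 1 by gene name. The gene found by name, IMP2, was dropped because its product line names a mitochondrial signal peptidase. All 14 matches reached 1 FPKM (fragments per kilobase of transcript, also corrected for sequencing depth) in 2 columns or more. The member nearest that limit was MOT45, which reached it in 8 of 9 columns and had 0.714 FPKM in the other, and no matched gene lay below the limit. Only MOT45 has an entry in the gene name column, so the other 12 members are called by the synonym that the same table gives.

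Cultures of strain CC-4532 in TAP, an acetate medium, were kept in continuous light, collected, washed free of Fe-EDTA and resuspended in TAP that lacked it. Polyadenylated RNA was sequenced from 18 samples in 9 groups of 2 cultures, namely pre-wash and post-wash (both labelled 0 min), 5, 10 and 15 min, 30 and 60 min, and later 120 and 240 min. All 9 groups share strain, medium base and light, and the labels give every group the same iron-deprivation treatment, the pre-wash group included, although it was taken before the wash. How much iron the cultures held until then was not given in the sources used here. Because a group resuspended in medium with iron was not analysed here, lack of iron, fresh medium, handling and elapsed time cannot be told apart.

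The deposited table has 1 FPKM column per time point for both cultures together. It allows no SD and no test, the depth is unknown, and only sizes of differences are given. Genes were counted as higher or lower when their log2(FPKM + 1) differed by at least 1, which is 2-fold for well expressed genes and asks for more than 2-fold in weak ones, while folds beside single genes are plain FPKM ratios. Of all genes, 12580 passed the filter on low values and serve as background. For the variation between neighbouring samplings, the robust SD of the log2 difference over these genes was lowest between 15 and 10 min (0.168) and highest between post-wash and pre-wash (0.435), and real change is part of it. Column sums lay between 631357 FPKM (pre-wash) and 762490.0 FPKM (10 min). FPKM are relative amounts in a bulk culture, so fewer cells with a transcript and less of it per cell cannot be told apart, and a change in total RNA per cell is not visible.

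Most of these genes shared a course in 2 parts. From 5 to 30 min their levels lay modestly above post-wash. After 30 min they were lower at each sampling, and at 240 min most were about 3-fold below pre-wash. By that time 10 of 13 members were at least 2-fold lower than pre-wash, while 0 were higher, against 4.94% of all kept genes lower and 4.38% higher. The median log2 difference of the members was -1.50, against 0.01 over all kept genes. The 10 are NOP1, NOP56, NOP58, NHP2, NOP10, RNP3, UTP1, NOP14, NEP1 and NGB1, which are the snoRNP proteins and the subunit assembly factors. The other 3, HEL6, RLI1 and MOT45, are annotated to several functions. HEL6 and MOT45 had courses of their own, while RLI1 followed the shared course over a narrower range. The split into roles was read from the annotation but made after the values had been seen, so counts over the 10 are a description.

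**Figure D1:**
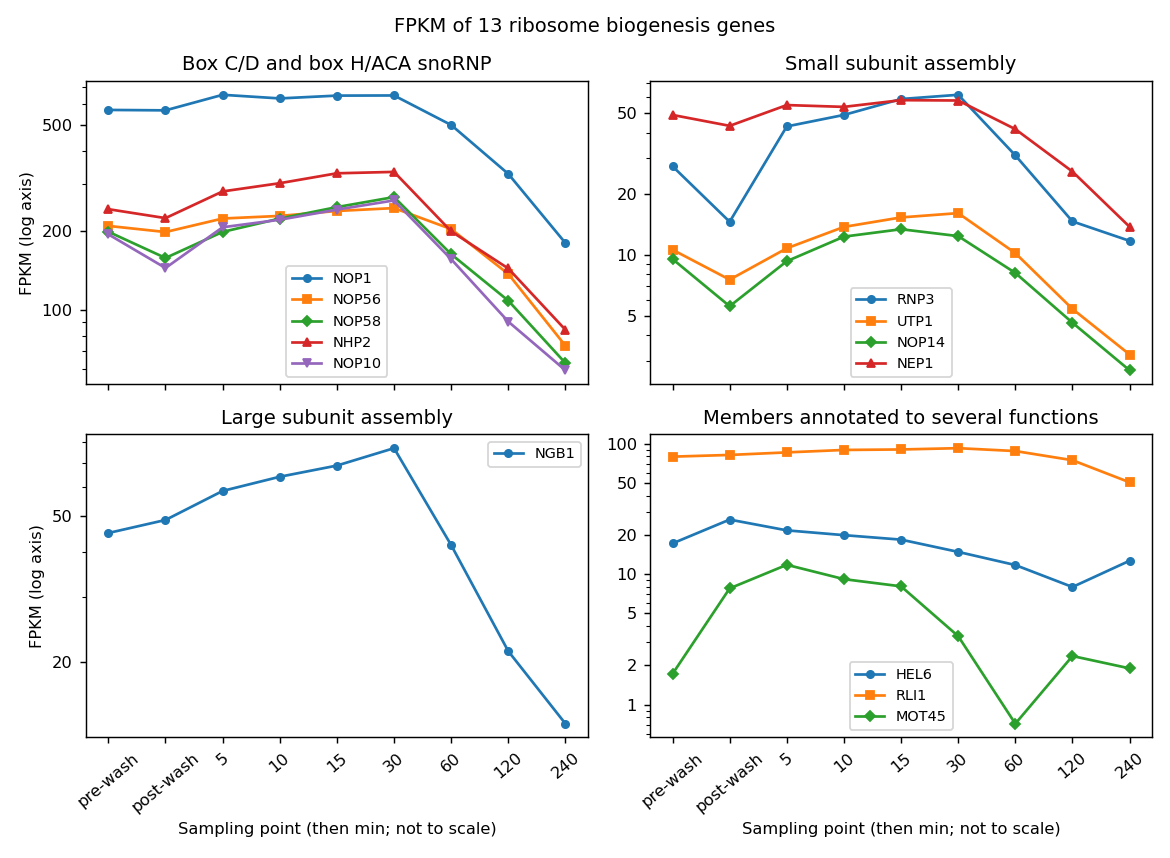
FPKM (log axis) of each of the 13 genes at the 9 sampling points, grouped by role, each point being the authors' value for both cultures together. All 10 snoRNP and subunit assembly genes were lowest at 240 min, whereas HEL6 was lowest at 120 min and MOT45 at 60 min.

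The box C/D particle was represented by its methyltransferase and both scaffold proteins. NOP1, the homologue of fibrillarin, which is the enzyme that methylates rRNA, was the most abundant member. It stood at 572 FPKM pre-wash, 570.0 post-wash, 653, 632, 648 and 649 FPKM at 5, 10, 15 and 30 min, and 502, 328 and 179 FPKM at 60, 120 and 240 min. The first 6 values lay within a narrow band, and each of the last 3 was below all of them. At 240 min NOP1 was 3.19-fold lower than pre-wash, a log2 difference of -1.67.

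NOP56 and NOP58 are related core proteins on which the box C/D particle is built. NOP56 stood at 208 FPKM pre-wash, 197 post-wash, 222, 227, 237 and 243 FPKM at 5, 10, 15 and 30 min, and 203, 137 and 73.3 FPKM at 60, 120 and 240 min. NOP58 had nearly the same level, with 198 FPKM pre-wash, 158 post-wash, 198, 222, 245 and 268 FPKM at 5, 10, 15 and 30 min, and 163, 109 and 63.1 FPKM at 60, 120 and 240 min. Both were highest at 30 min and lowest at 240 min, with NOP58 moving over a wider range (4.25-fold) than NOP56 (3.32-fold). Against pre-wash, NOP58 was 3.14-fold and NOP56 2.84-fold lower at 240 min.

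The box H/ACA particle was represented by NHP2 and NOP10, small structural proteins that hold the pseudouridine synthase on its guide RNA. NHP2 stood at 241 FPKM pre-wash, 223 post-wash, 281, 302, 329 and 333 FPKM at 5, 10, 15 and 30 min, and 199, 144 and 84.3 FPKM at 60, 120 and 240 min. NOP10 stood at 194 FPKM pre-wash, 144 post-wash, 206, 219.8, 240.1 and 260.1 FPKM at 5, 10, 15 and 30 min, and 156, 90.5 and 59.2 FPKM at 60, 120 and 240 min. Both lay below their pre-wash level from 60 min on. NOP10 was among the 3 members already counted as 2-fold lower than pre-wash at 120 min, with 90.5 FPKM against 194 FPKM pre-wash. At 240 min it was 3.27-fold and NHP2 2.86-fold lower than pre-wash.

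The small subunit assembly genes were, apart from NEP1, further below pre-wash directly after the wash than most snoRNP genes, and further above post-wash at 30 min. RNP3, annotated as a protein of the U3 snoRNP that guides the first cuts of the precursor, stood at 27.3 FPKM pre-wash, 14.5 post-wash, 42.9, 48.8, 58.5 and 61.4 FPKM at 5, 10, 15 and 30 min, and 30.9, 14.6 and 11.7 FPKM at 60, 120 and 240 min. It was 1.88-fold lower post-wash than pre-wash, 2.95-fold higher at 5 min than post-wash, and 5.25-fold lower at 240 min than at 30 min. RNP3 was the only one of the 10 at least 2-fold above pre-wash at any time, at 15 and 30 min, with log2 differences of 1.07 and 1.14. With each column rescaled to the same sum, which puts the median of all kept genes at -0.11 for 30 min against pre-wash, or quantile-normalized, 0 of 13 members met that rule at 30 min. At 15 min 1 member met it under either setting, against 2 as deposited.

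UTP1 and NOP14, parts of the large particle that forms on the nascent precursor (the small subunit processome), were the least abundant of the 10. UTP1 stood at 10.6 FPKM pre-wash, 7.53 post-wash, 10.8, 13.7, 15.3 and 16.0 FPKM at 5, 10, 15 and 30 min, and 10.2, 5.40 and 3.22 FPKM at 60, 120 and 240 min. NOP14, which is required in yeast for making 40S subunits, stood at 9.51 FPKM pre-wash, 5.57 post-wash, 9.28, 12.3, 13.3 and 12.3 FPKM at 5, 10, 15 and 30 min, and 8.13, 4.62 and 2.69 FPKM at 60, 120 and 240 min. Their courses ran side by side, with 240 min values 3.28-fold (UTP1) and 3.54-fold (NOP14) lower than pre-wash.

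NEP1, a methyltransferase of small subunit maturation, had a shallower dip after the wash than the other small subunit genes. It stood at 48.8 FPKM pre-wash, 43.2 post-wash, 54.6, 53.5, 57.8 and 57.5 FPKM at 5, 10, 15 and 30 min, and 41.6, 25.7 and 13.7 FPKM at 60, 120 and 240 min. Its log2 difference at 240 min against pre-wash, -1.76, was the lowest of the 13, and 0.79% of all kept genes were lower still.

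NGB1, a nucleolar GTP-binding protein of the NOG family that acts on the large subunit, was the sole member annotated to that subunit alone. It stood at 45.0 FPKM pre-wash, 48.9 post-wash, 58.7, 64.2, 68.9 and 76.9 FPKM at 5, 10, 15 and 30 min, and 41.7, 21.3 and 13.5 FPKM at 60, 120 and 240 min. Unlike the other 9 it was not below pre-wash directly after the wash. From 30 to 240 min it had the largest difference of the 13, 5.69-fold lower at 240 min.

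**Figure D2:**
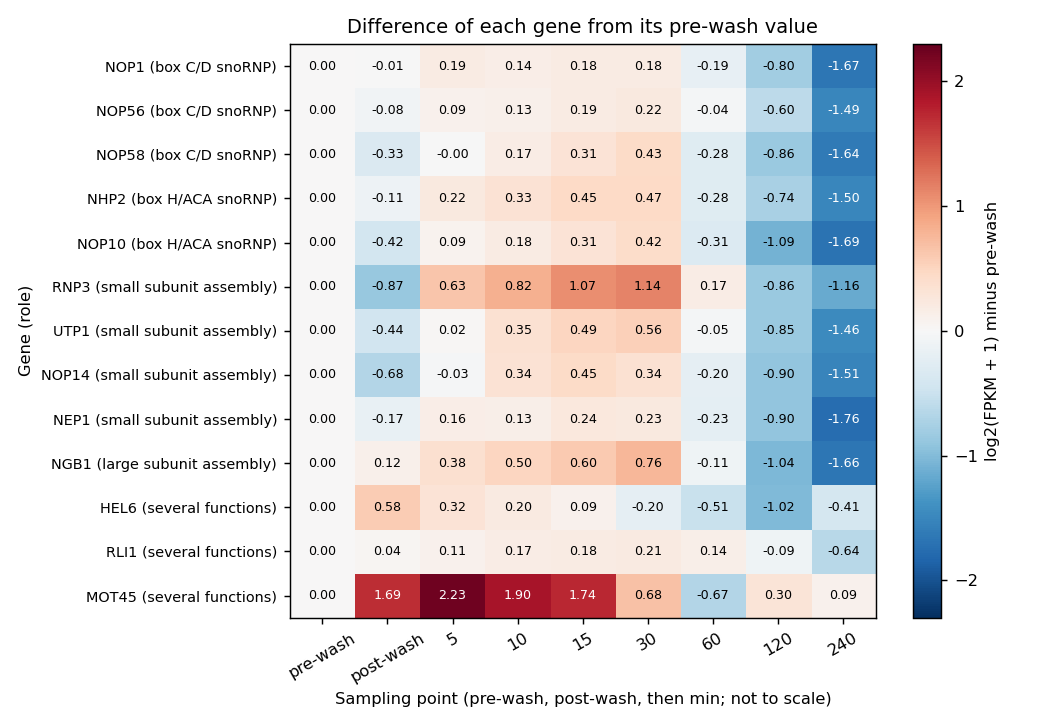
Difference in log2(FPKM + 1) from pre-wash for each gene (rows, with role) at each sampling point (columns), with the value written in each cell. The 10 upper rows turn blue between 60 and 240 min, ending between -1.16 (RNP3) and -1.76 (NEP1), while the 3 lower rows do not reach -1 at 240 min.

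HEL6 and MOT45 departed from this course, while RLI1 followed it over a narrower range. HEL6, a DEAD-box RNA helicase whose yeast counterpart Dbp2 acts in both mRNA decay and rRNA processing, stood at 17.2 FPKM pre-wash, 26.2 post-wash, 21.7, 19.9, 18.4 and 14.8 FPKM at 5, 10, 15 and 30 min, and 11.8, 7.98 and 12.7 FPKM at 60, 120 and 240 min. It was highest directly after the wash and lowest at 120 min, when it was 2.16-fold lower than pre-wash, and at 240 min it was 1.59-fold higher than at 120 min. A minimum at 120 min was found in 5.95% of all kept genes and in HEL6 alone of the members. HEL6 and MOT45 were the only members not lower at each step from 30 to 240 min.

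RLI1 encodes an ATPase with iron-sulfur clusters that takes part in ribosome biogenesis, translation initiation and, in other eukaryotes, the recycling of ribosomes. It stood at 79.7 FPKM pre-wash, 82.1 post-wash, 85.9, 89.7, 90.4 and 92.5 FPKM at 5, 10, 15 and 30 min, and 88.0, 74.8 and 50.6 FPKM at 60, 120 and 240 min. Like the snoRNP genes it was highest at 30 min, apart from NOP1, and lowest at 240 min, but its range of 1.83-fold was the narrowest of the 13. At 240 min it was 1.57-fold lower than pre-wash, which did not meet the 2-fold rule.

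MOT45, with a PIH1 domain and a possible role in box C/D snoRNP assembly, is in a gene family that also holds assembly factors of ciliary dyneins in this alga. It stood at 1.72 FPKM pre-wash, 7.79 post-wash, 11.8, 9.17, 8.07 and 3.35 FPKM at 5, 10, 15 and 30 min, and 0.714, 2.36 and 1.90 FPKM at 60, 120 and 240 min. It was the only member counted as 2-fold higher post-wash than pre-wash, where 8.47% of all kept genes were higher and 1.18% lower. Its level at 240 min, 1.90 FPKM against 1.72 FPKM pre-wash, was close to where it had begun. From its highest to its lowest column MOT45 differed 16.5-fold, the widest range of the 13, at levels near 1 FPKM at the low end.

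The wash itself is addressed by post-wash against pre-wash. Of the 13 members 4 lay above and 9 below pre-wash, whereas 49.7% of all kept genes lay above. The median log2 difference of the members was -0.11, against 0.00 over all kept genes. The lowest was RNP3 at -0.87, followed by NOP14 at -0.68 and UTP1 at -0.44, while NOP1 at -0.01 was the closest to no difference. Of the 10 snoRNP and assembly genes 9 were below pre-wash, all but NGB1. With median-of-ratios scaling 8 were below. All 10 were below with columns rescaled to equal sums or quantile-normalized, but these settings also put the median of all kept genes below 0, at -0.22 and -0.12. Relative to that median the members' median was -0.11 as deposited, -0.15 with equal sums and -0.27 under quantile normalization.

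From 5 to 30 min all 10 snoRNP and assembly genes lay above post-wash at each sampling, also under quantile normalization, median-of-ratios scaling and rescaling to equal sums, while 47.3%, 47.1%, 47.6% and 49.5% of all kept genes lay above post-wash at 5, 10, 15 and 30 min as deposited. Over all 13 members the median log2 difference from post-wash was 0.33, 0.39, 0.49 and 0.58 at 5, 10, 15 and 30 min, against medians between -0.03 and -0.01 over all kept genes. Few reached 2-fold. The number higher was 1 at 5 min and 2 at 10, 15 and 30 min, and 1 member, MOT45, was lower at 30 min. The shares of all kept genes that were higher were 1.87%, 3.60%, 5.15% and 8.92% at these times, and the shares lower were 0.970%, 2.57%, 3.86% and 10.1%. RNP3 was higher at all 4 times and NOP14 at 10, 15 and 30 min. UTP1 came just short at 30 min, with 16.0 FPKM, against 7.53 FPKM post-wash and a log2 difference of 0.997.

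Set against pre-wash, the early difference was smaller, and at 5 and 10 min its direction was turned by quantile normalization. As deposited, the median of the members was 0.16, 0.20, 0.31 and 0.42 at 5, 10, 15 and 30 min, but at 5 and 10 min it was -0.19 and -0.09 under quantile normalization and -0.10 and -0.06 with columns rescaled to equal sums. Rescaling to equal sums lowered all genes alike, with an all-gene median of -0.20 at both times. Relative to the all-gene median, the members stood at 0.14 and 0.16 as deposited, 0.10 and 0.14 with equal sums, and -0.07 and -0.01 under quantile normalization at 5 and 10 min. At 30 min the members' median stayed above 0 under both settings, at 0.18 under quantile normalization and 0.21 with equal sums. All 10 snoRNP and assembly genes were above pre-wash at 30 min as deposited, 8 under quantile normalization and 9 with equal sums, where 55.2% of all kept genes lay above as deposited. At 5, 10, 15 and 30 min 1, 1, 2 and 1 of 13 members were 2-fold higher than pre-wash, where 8.78%, 7.44%, 7.20% and 5.53% of all kept genes were, and 0 were lower, where 1.61%, 1.69%, 2.18% and 3.74% were.

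As deposited, the difference between 240 and 30 min was spread over 3 steps of similar size, although the later samplings lay further apart in time. The median log2 difference of the members was -0.61 for 60 against 30 min, -0.61 for 120 against 60 min and -0.61 for 240 against 120 min, while over all kept genes it lay between -0.04 and 0.00. Few members met the 2-fold rule in a single step. MOT45 did for 60 against 30 min, where 2.46% of all kept genes were lower, and RNP3 for 120 against 60 min, where 1.37% were, and 0 of 13 did for 240 against 120 min, where 0.922% were. Over the 3 steps together all 10 snoRNP and assembly genes were between 3.32-fold (NOP56) and 5.69-fold (NGB1) lower at 240 min than at 30 min, against 9.73% of all kept genes at least 2-fold lower. The contrast with 30 min was chosen after the course had been seen.

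The genes differed in which step was larger. At 60 min NOP56 stood at 202.6 FPKM, against 243 FPKM at 30 min, and NOP1 was 1.29-fold lower, whereas RNP3 was 1.99-fold and NGB1 1.84-fold lower than at 30 min. In the last step the order was turned round, with NOP56 1.87-fold and NOP1 1.83-fold lower at 240 than at 120 min, but RNP3 1.25-fold and NGB1 1.58-fold lower. Without replicates it cannot be said whether these differences between genes exceed the variation between cultures.

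Against pre-wash 0 members were 2-fold different at 60 min, where 4.05% of all kept genes were higher and 3.66% lower, and the median was -0.20. At 120 min 3 were lower, NOP10, NGB1 and HEL6, where 1.72% of all kept genes were lower and 2.33% higher, and the median was -0.86. At 240 min, when 10 were lower, each of these lay among the lowest 3.60% of all kept genes. Relative to post-wash, 1 member (RNP3) was higher and 2 (HEL6 and MOT45) lower at 60 min, and 3 (HEL6, MOT45 and NGB1) were lower at 120 min. The shares of all kept genes were 7.41% higher and 14.4% lower at 60 min, and 4.35% higher and 10.1% lower at 120 min. At 240 min 9 of 13 members were lower than post-wash and 0 higher, beside 12.3% and 6.48% of all kept genes, and the median of the members was -1.31. These were MOT45 and 8 of the 10 snoRNP and assembly genes, all but NOP14 (-0.83) and RNP3 (-0.29). The contrasts share their control columns with each other, so they are not independent of one another.

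**Figure D3:**
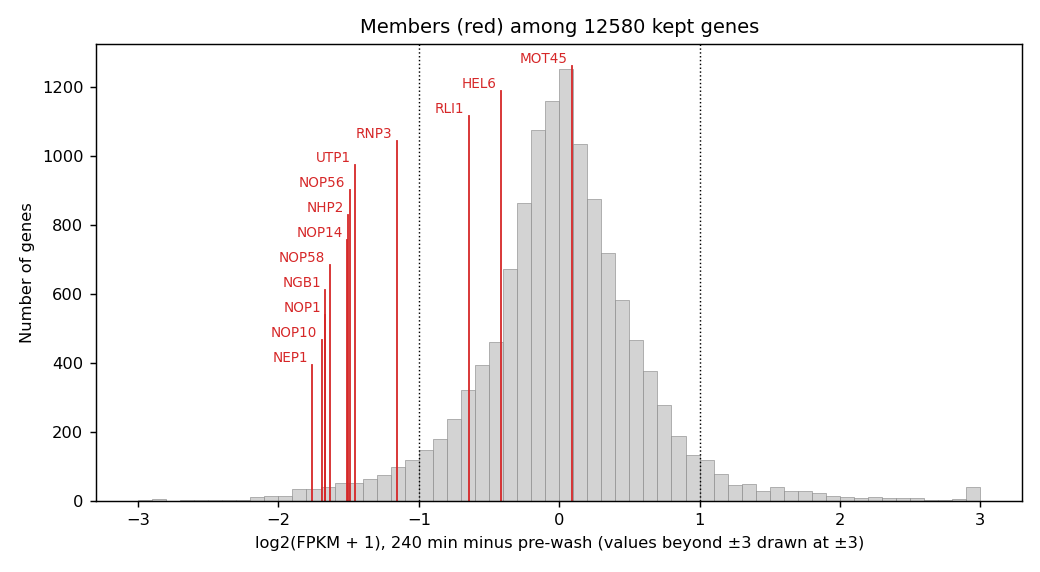
Number of genes (y axis) by log2(FPKM + 1) at 240 min minus pre-wash (x axis) for 12580 kept genes in grey, with the 13 ribosome biogenesis genes as red lines whose heights only separate the names, and dotted lines at the 2-fold limits. The 10 snoRNP and assembly genes lie left of the lower limit, RLI1 and HEL6 between it and 0, and MOT45 just above 0.

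In summed level the 13 genes made up 0.262% of the pre-wash column, 0.284% of the 30 min column and 0.0787% of the 240 min column, with NOP1 the largest part of each. The shape itself was common to most members. Of 13 members, 11 had their lowest value at 240 min, against 19.3% of all kept genes. The number lower at each step from 30 to 240 min was also 11, against 17.4% of all kept genes. The highest value lay at 30 min in 8 members and in 16.7% of all kept genes. A maximum at 30 min with a minimum at 240 min was found in the same 8 members and in 5.57% of all kept genes. Pearson's r between the courses of the 10 snoRNP and assembly genes, over 9 columns that all genes share, ran from 0.77 to 1.00 over 45 pairs with a median of 0.97. The 10 were set apart after the values had been seen, so this likeness is a description. Each member was also correlated with the median log2(FPKM + 1) level of the other 12. That median follows the genes of middle abundance and is not an average of all courses. The r with it was 0.99 for NHP2, 0.84 for RNP3, 0.93 for RLI1, 0.52 for HEL6 and 0.49 for MOT45.

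Other genes of the same pathway, which the rule missed because their gene name is blank or their text has other words, were looked up by product line, gene name and synonym. Of 6 such assembly factors, 5 were at least 2-fold lower at 240 min than pre-wash and 0 higher, and the list's median was -1.33. The 5 include a putative rRNA methyltransferase, at -1.03, whose product line does not say in which compartment it acts. In the same contrast 4.94% of all kept genes were lower and 4.38% higher, which is also the background for the lists below. CBF5, the pseudouridine synthase of the H/ACA particle whose partners are NHP2 and NOP10, had 41.0 FPKM at 240 min, against 119 FPKM pre-wash. EIF6A, a factor bound to the immature large subunit, had 30.1 FPKM at 240 min, against 88.6 FPKM pre-wash. At 30 min it had 174 FPKM, and its log2 difference from pre-wash, 0.97, was the highest of the list. RCL1, of the small subunit processome in yeast, had 8.95 FPKM at 240 min, against 26.1 FPKM pre-wash. The sixth gene, with the synonym HAS1 and no product line, had its maximum post-wash (5.73 FPKM) and its minimum at 30 min (1.53 FPKM), and was at 2.24 FPKM at 240 min, against 3.93 FPKM pre-wash. It is named because it was the exception, after its values had been seen.

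The exosome, a complex of RNases that trims rRNA precursors and degrades other RNAs, was likewise highest in median at 30 min and lowest at 240 min. At 30 min against post-wash its median log2 difference was 0.84, beside 0.58 for the members, and at 240 min against pre-wash it was -0.97, beside -1.50 for the members. All 6 of its genes had their minimum at 240 min and were lower at each step from 30 min, and 2 of 6 met the 2-fold rule at 240 min against pre-wash. Under quantile normalization 5 of 6 met it, and so did 5 with equal column sums, which put the all-gene median at -0.15. MTR4, a helicase that feeds RNA to the exosome, had 2.10 FPKM at 240 min, against 6.64 FPKM pre-wash, and the cap subunit gene CSL4 had 10.3 FPKM, against 22.5 FPKM pre-wash. RRP4, an RNA-binding subunit, had 7.96 FPKM at 240 min, against 16.6 FPKM pre-wash. RRP4 and the remaining 3 genes had log2 differences between -0.76 and -0.97.

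RNA polymerase I makes the rRNA precursor, and polymerase III makes 5S rRNA and transfer RNAs. Of 7 subunit genes found by product line, some of which also serve polymerase II, 5 were 2-fold lower at 240 min than pre-wash, 0 were higher and the median was -1.17. With median-of-ratios scaling 4 were lower, and with equal column sums, with the same all-gene median of -0.15, all 7 were. RPA1, the largest subunit of polymerase I, had 10.8 FPKM at 240 min, against 35.7 FPKM pre-wash and 51.6 FPKM at 30 min. RPA12, another polymerase I subunit, had 12.4 FPKM at 240 min, against 33.0 FPKM pre-wash. RPC19, a shared subunit, had 22.9 FPKM at 240 min, against 53.8 FPKM pre-wash.

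The genes for the ribosomal proteins themselves were not lower to this extent. Of 62 cytosolic ribosomal protein genes, 0 were 2-fold different at 240 min from pre-wash, with log2 differences between -0.08 and 0.23 and a median of 0.04. With equal column sums the median was -0.15, which is also where that setting puts all kept genes, and under quantile normalization it was -0.19, with all kept genes at -0.01. As deposited, all 62 lay above pre-wash directly after the wash, with a median of 0.29, against -0.004 over all kept genes. At 240 min all 62 lay below post-wash, with a median of -0.26, against -0.026 over all kept genes. The genes with the largest differences at 240 min were RPS28 (337 FPKM, against 287 FPKM pre-wash), RPL37A (3251 against 2769 FPKM) and RPS24 (3458 against 2989.7 FPKM). Of 34 plastid ribosomal protein genes, 0 were 2-fold different at 240 min, with log2 differences between -0.42 and 0.53 and a median of -0.17. The largest difference was that of PSRP1, with 113 FPKM at 240 min, against 77.9 FPKM pre-wash. Their minimum also fell at 240 min in 31 of 34 genes. PRPS5 had 259 FPKM at 240 min, against 347 FPKM pre-wash, and PRPL17 had 239 FPKM, against 309 FPKM pre-wash. With 1 column per time point the difference between these lists and the assembly factors could not be tested, and it is described by these counts and medians.

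**Figure D4:**
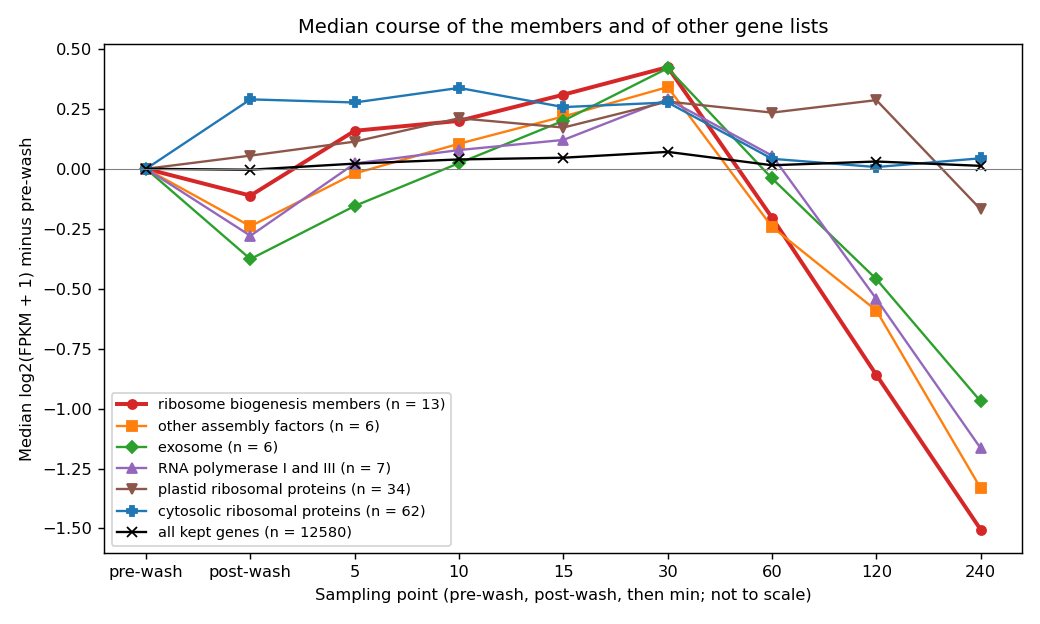
Median difference in log2(FPKM + 1) from pre-wash (y axis) at each sampling point (x axis) for the 13 ribosome biogenesis genes, 4 lists of related function, 62 cytosolic ribosomal protein genes and all kept genes. At 240 min the members, other assembly factors, polymerase I and III and exosome lists were at -1.50, -1.33, -1.17 and -0.97, while the medians of plastid (-0.17) and cytosolic ribosomal proteins (0.04, but -0.19 under quantile normalization, and -0.15 with equal column sums, where all kept genes also stand at -0.15) were nearer 0.

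The members are scattered in the genome. All 13 matched the RefSeq gene table of assembly Chlamydomonas_reinhardtii_v5.5, where 0 had another member as its direct neighbour. Of the 26 genes that flank them, 18 passed the filter on low values. At 240 min 1 of these 18 was 2-fold lower and 2 were 2-fold higher than pre-wash, beside 4.94% and 4.38% of all kept genes. The median difference of the 18 was 0.05. The lower one, Cre10.g441450, lies next to NOP58 and had 5.15 FPKM at 240 min, against 18.4 FPKM pre-wash. The higher ones were Cre01.g009900 beside NEP1, with 167 FPKM at 240 min against 8.91 FPKM pre-wash, and Cre09.g411500 beside MOT45, with 2.69 FPKM against 0.443 FPKM pre-wash. These 3 neighbours were named after their values had been seen.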

How the data were processed

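The authors deposited 1 table of FPKM, whose identifiers belong to annotation v5.6 per the file headers. The submitters' processing notes name STAR 2.4.1 and Cuffdiff 2.0.2. The scaling of libraries and the use of strand were not given in the sources used here. Since each of the 9 columns used combines 2 cultures, the planned limma fits, replicate block and omission of replicates could not be run. A further 9 value columns match no sample of this study's 18 and were left unused. Values were taken as log2(FPKM + 1), genes that reached 1 FPKM in 2 columns were kept, and 2-fold differences were counted with Python 3.11.15, pandas 2.3.3 and numpy 2.4.6. Counting was first tested on simulated data with large known differences at levels of 5 FPKM or more. That test does not cover weaker genes or differences near 2-fold. Alternatives were a pseudocount of 0.1, no filter, a minimum of 5 FPKM, quantile and median-of-ratios scaling, and keeping IMP2. Rescaling to equal column sums, leaving out HEL6, RLI1 and MOT45, and searching synonyms were added after the data were seen. Members, lists and tests were chosen with earlier results of these data known, and the use of synonyms in the pathway lists was decided after values had been seen. From the pathway lists, 2 genes whose product lines name other functions were left out. By the naming rule these were all members, the 3 genes of each other list with the largest difference in the contrast discussed, and the 8 genes whose course was most like the members' median, of which 3 are named. HAS1 and RPS27E2 are among those 3 for 30 min only and were singled out after their values were seen, as were 3 neighbouring genes outside the rule.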

Additional observations from a re-analysis of the deposited data

How the results depend on the processing

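No paired analysis was possible because the table combines both cultures of each time point, and for the same reason no replicate could be left out. The gene name pattern alone finds 0 members once IMP2 is dropped, so that alternative gave no value. At 240 min 10 of 13 members were 2-fold lower than pre-wash, and between 10 and 12 genes were under the 9 alternatives run. The number of genes counted was not 13 in all of these and was 19 with synonyms searched, so this range is not one of shares. Over these alternatives 238 of 270 counts and medians stayed close to the reported value (a count within 1.5 times, a median within 0.168) and 32 did not. The settings with no filter and with a minimum of 5 FPKM kept the same 13 members, so their 30 results each could not differ. Of 30 results each, 12 were not close under quantile normalization and 11 with equal column sums. A pseudocount of 0.1 gave 1 member 2-fold from pre-wash at 60 min instead of 0. Quantile normalization shifted the all-gene median by up to 0.14 and gave 2, 1 and 0 members 2-fold from pre-wash at post-wash, 15 and 30 min, and 1 member 2-fold from post-wash at 10 min. Its medians against pre-wash were -0.38 post-wash, -0.19, -0.090, 0.024 and 0.18 at 5, 10, 15 and 30 min, and -0.38 at 60 min, while those against post-wash were -0.41 at 120 min and -1.06 at 240 min. Rescaling to equal column sums gave 2, 1 and 0 members 2-fold from pre-wash at post-wash, 15 and 30 min. Its medians against pre-wash were -0.37 post-wash, -0.10, -0.059, 0.079 and 0.21 at 5, 10, 15 and 30 min, and -1.70 at 240 min, and against post-wash 0.24 at 60 min and -0.45 at 120 min. That setting lowers all genes together against pre-wash, with an all-gene median of -0.22 post-wash, -0.20 at 5 and 10 min and -0.15 at 240 min. Without HEL6, RLI1 and MOT45 there were 0 members 2-fold from pre-wash at post-wash, 5 or 10 min, with 1 at 15 min, and at both 60 and 120 min 1 was 2-fold from post-wash instead of 3, because fewer genes were counted. With synonyms searched too, 19 members gave medians of -0.31 for post-wash against pre-wash and -1.02 for 240 min against post-wash. The median against post-wash at 60 min, 0.04, was -0.01 with IMP2 kept. Depth is unknown, so no limit from depth can be given.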

Other observations

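Outside the members, 7579 genes reached 5 FPKM in 2 columns. They were ranked by Pearson's r of their log2(FPKM + 1) course with a reference course. The reference was the median log2(FPKM + 1) level of the 13 ribosome biogenesis genes at each of 9 columns that all genes share. Levels were not centred per gene, so it equals NEP1 pre-wash and at 120 and 240 min, and NGB1 at the other columns. The ranking is thus by likeness to NEP1 and NGB1, not to a course averaged over the 13. This is a description of likeness and says nothing of shared function. In 356 genes r was 0.9 or more, and in 129 it was 0.95 or more. The third in order was RCL1, the homologue of a yeast pre-rRNA processing factor, with r = 0.99. The other 7 of the first 8 have no gene name, synonym or product line in the deposited table. The first, Cre02.g088700 (r = 1.00), had 1.86 FPKM at 240 min, against 8.54 FPKM pre-wash and 13.6 FPKM at 30 min. Cre15.g640250 had the largest difference of the 8, with 5.31 FPKM at 240 min, against 26.6 FPKM pre-wash and 40.9 FPKM at 30 min. The smallest difference of the 8 was 2.13-fold, again lower at 240 min.

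Among the cytosolic ribosomal protein genes 1 differed from the rest early on. RPS27E2, the second of a pair of genes for the small subunit protein S27e, had 5.10, 4.15 and 4.87 FPKM at 10, 15 and 30 min, against 12.4 FPKM pre-wash. It was the only 1 of 62 that met the 2-fold rule against pre-wash at any time point, and it was chosen after its values had been seen.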
